A study of Homo sapiens with 15 samples.

Results

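Semaphorins are secreted or membrane-bound signalling proteins, plexins are their main receptors, and neuropilins are the co-receptors through which most secreted semaphorins reach a plexin. The genes described here were all genes whose symbol is SEMA with a class number, PLXN with a type letter from A to D, NRP1 or NRP2, and that had a probe set annotated to that gene alone. There were 31 of them among the 18132 genes measured: 7 secreted class 3 semaphorins (SEMA3A to SEMA3G), 13 membrane-attached semaphorins of classes 4 to 7, 9 plexins and both neuropilins. All 31 family members that RefSeq lists as protein-coding genes were measured.

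Expression was measured in 15 established non-small-cell lung cancer (NSCLC) lines on Affymetrix PrimeView arrays, with 1 array per line and no repeat culture. No line had been given radiation, a drug or a genetic change for the array, so the lines differ by the tumour they came from and by what they acquired in culture. The study set radioresistant against radiosensitive lines by SF2, the fraction of cells that still form colonies after a dose of 2 Gy, with the mean SF2 of the lines as the limit. The 8 radioresistant lines were H1975, A549, HC827 (the labels' spelling of HCC827), H358, H2228, H3122, H460 and H1650, and the 7 radiosensitive lines were H520, Calu1, H1437, H226, Calu3, H2009 and H1781, each list running from the highest to the lowest SF2. The SF2 of H520 was taken by the study from the literature. By histology, H226, H520 and Calu1 were squamous, H1437 and H358 bronchioloalveolar and H460 large cell carcinoma, and the other 9 lines were adenocarcinomas. All 3 squamous lines were radiosensitive, so in these lines the contrasts by radiosensitivity and by histology overlap. The lines of a group serve as its replicates, so p-values refer to differences among lines and not among cultures of 1 line.

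Semaphorins were first known as guidance cues that turn growing axons away, and the same proteins steer endothelial, immune and tumour cells. A class 3 semaphorin binds a neuropilin, which pairs with an A-type plexin; SEMA3E is the exception and binds PLXND1 directly. Membrane semaphorins bind plexins without a neuropilin: SEMA4D binds PLXNB1, SEMA7A binds PLXNC1 and integrins, and SEMA6A binds PLXNA2 and PLXNA4. Neuropilins are also receptors for VEGF, and SEMA3A competes with VEGF for them. SEMA3B and SEMA3F lie in a region of the short arm of chromosome 3 that is often lost in lung cancer.

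The values are log2 intensities after RMA, and 1 unit is a doubling. They compare the same gene between lines; a level of one gene was not set against that of another, since probe sets differ in brightness. As a yardstick, array medians ran from 5.87 to 5.93, and lower quartiles from 4.15 to 4.33. No array stood apart in these, but 2 lines, H1781 (2.09) and H3122 (1.90), had a wider gap between the 3' and 5' actin probe sets than the other 13 (0.63 to 1.30). A wide gap is a known sign of shorter RNA or cDNA. KRT8, KRT18 and KRT19, keratins of epithelial cells, were between 9.74 and 14.73 in every line. The other epithelial markers, EPCAM and CDH1, were below the lower quartile in H226 (4.03 and 3.49) and H460 (4.21 and 3.38). PTPRC, the pan-leukocyte gene, was between 2.96 and 3.45, below the lower quartile in all 15 lines. Of the other leukocyte markers, CD3E was between 4.55 and 4.93. CD14 was at 9.64 in H1437 and between 3.74 and 6.12 in the other lines. Of the squamous markers KRT5, KRT14, DSG3 and SOX2, KRT5 was at 8.66 in H226 and between 5.37 and 6.12 elsewhere. DSG3 in the squamous lines was between 4.29 and 4.65. SOX2 was at 13.07 in H520, 4.47 in Calu1 and 4.35 in H226, and reached 11.78 in the adenocarcinoma line H1781. KRT14 was between 5.34 in H226 and 6.53 in Calu1 in the squamous lines, and between 5.43 and 6.38 in the adenocarcinoma lines. TP63, also on the list of squamous markers, was not among the genes measured. The squamous label was thus borne out by the measured markers only in part.

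RefSeq promoters, each reaching from 250 bases before to 50 bases after a transcription start in GRCh38.p14, were found for 27 of the 31 members, 48 promoters in all. Of the 10 members whose level varied by more than 4 log2 units over the lines, 4 had exactly 1 promoter in the table, and these are printed to show the start regions of members with wide contrasts between lines. Others with a wide range, among them SEMA3A, SEMA3C, SEMA3E and SEMA6A, had no entry or several and are not printed. Each is 5′ to 3′ on the strand of the gene, in lower case with CG dinucleotides, the targets of DNA methylation, in capitals.
SEMA3D (chr7:85187007-85187306, minus strand): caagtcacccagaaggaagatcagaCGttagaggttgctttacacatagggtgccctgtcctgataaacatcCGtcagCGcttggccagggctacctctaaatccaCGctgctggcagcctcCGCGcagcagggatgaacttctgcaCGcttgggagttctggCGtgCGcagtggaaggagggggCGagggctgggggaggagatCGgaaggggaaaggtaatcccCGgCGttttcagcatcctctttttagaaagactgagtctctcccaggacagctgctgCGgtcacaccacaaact
SEMA5A (chr5:9546026-9546325, minus strand): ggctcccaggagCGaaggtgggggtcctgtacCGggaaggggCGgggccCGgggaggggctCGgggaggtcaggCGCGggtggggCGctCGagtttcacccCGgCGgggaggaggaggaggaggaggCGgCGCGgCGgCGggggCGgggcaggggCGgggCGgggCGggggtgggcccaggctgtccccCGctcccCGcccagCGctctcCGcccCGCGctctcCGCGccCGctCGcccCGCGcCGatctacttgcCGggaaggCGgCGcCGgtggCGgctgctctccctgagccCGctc
NRP2 (chr2:205682251-205682550, plus strand): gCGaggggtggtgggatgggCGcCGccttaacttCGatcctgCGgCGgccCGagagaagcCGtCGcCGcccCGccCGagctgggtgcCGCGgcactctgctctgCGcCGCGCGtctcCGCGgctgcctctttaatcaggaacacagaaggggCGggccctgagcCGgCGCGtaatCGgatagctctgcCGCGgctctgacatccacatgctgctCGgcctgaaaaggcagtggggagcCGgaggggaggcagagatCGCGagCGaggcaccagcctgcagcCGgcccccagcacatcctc
PLXND1 (chr3:129606627-129606926, minus strand): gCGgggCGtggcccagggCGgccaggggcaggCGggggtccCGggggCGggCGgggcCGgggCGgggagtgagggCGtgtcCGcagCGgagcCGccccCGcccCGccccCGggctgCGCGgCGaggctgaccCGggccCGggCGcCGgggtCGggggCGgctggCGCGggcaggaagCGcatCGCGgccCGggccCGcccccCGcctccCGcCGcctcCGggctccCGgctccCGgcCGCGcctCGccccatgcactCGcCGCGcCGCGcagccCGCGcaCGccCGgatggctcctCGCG
The SEMA3D promoter held 14 CG dinucleotides, the median of all 35116 promoters of this length, whereas SEMA5A held 39, NRP2 33 and PLXND1 52. As many as in PLXND1 were found in 0.78% of all promoters, as many as in SEMA5A in 8.71% and as many as in NRP2 in 17.2%. The 48 promoters of the members had a median of 17.5 CG dinucleotides, with a range of 1 to 54. The motif TATAAA on either strand was in none of the 4 printed promoters, in 1 of the 48 and in 11.5% of all promoters. DNA methylation was not analysed here.

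The members varied widely between lines. The distance from the lowest to the highest of the 15 lines had a median of 2.80 log2 units over the 31 members, against 1.6 over all genes. It exceeded 4 units in 10 members (32.3%), against 12% of all genes. Class 3 semaphorins had a median range of 5.78, with 4 of 7 genes over 4 units, and the neuropilins one of 4.74, with 2 of 2 over 4 units. SEMA3A, SEMA3D and SEMA3E (9.68% of members, against 5.42% of all genes) were below the lower quartile of the array in at least 1 line and above the upper quartile in another. At the other end, the probe sets used for PLXNA4, SEMA4A, SEMA4G and SEMA6D were above the array median in no line (12.9% of members, against 29.1% of all genes), and 14 members were above it in every line (45.2%, against 42.7% of all genes).

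**Figure D1:**
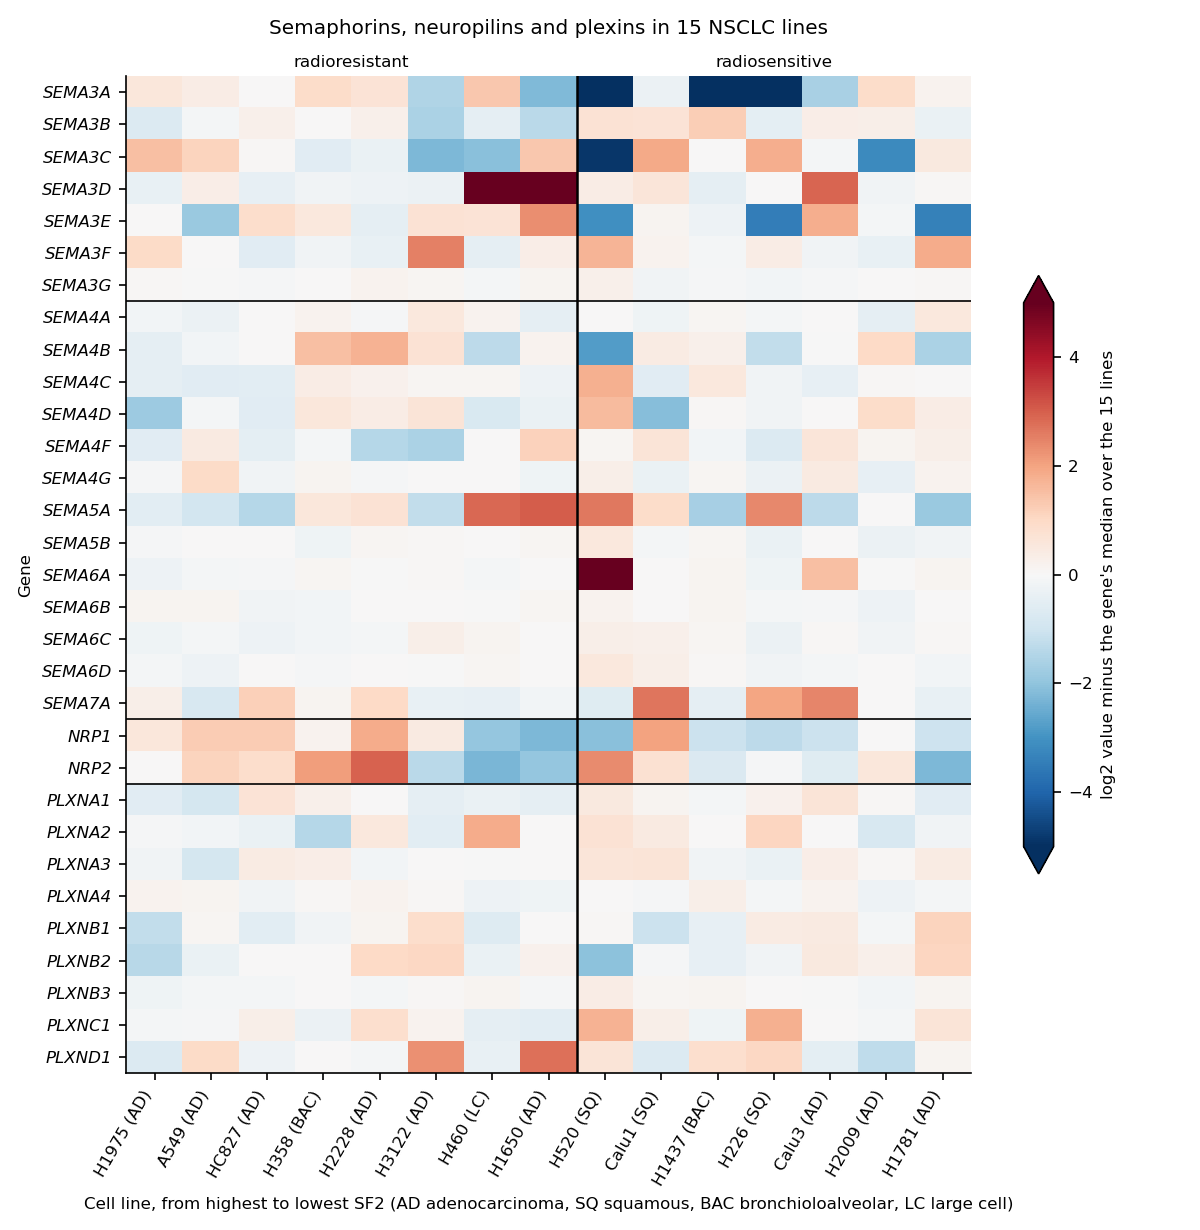
Log2 value of each of the 31 members (rows) in each of the 15 lines (columns, from the highest SF2 at the left to the lowest at the right) as the distance from the gene's median over the lines; differences beyond 5 units share the end colour. SEMA3A is dark blue in H520, H1437 and H226, SEMA3D dark red in H460 and H1650, and SEMA6A dark red in H520, while most rows of the membrane semaphorins of class 6 and of PLXNA4 and PLXNB3 are nearly white.

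Among the secreted ligands, SEMA3A, the class 3 semaphorin that signals through NRP1 and A-type plexins, was near the floor of the array in 3 lines. It was at 2.96 in H226, 3.08 in H1437 and 3.20 in H520, all radiosensitive, and in the other 12 lines between 6.66 in H1650 and 10.19 in H460. No line lay between these ranges. The other SEMA3A probe set had the same 3 lines lowest, at 3.71, 3.92 and 4.25, and again H460 highest, at 9.69.

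SEMA3D, which signals in the developing heart and vessels, had the opposite form. It was at 9.78 in the large cell line H460, 8.64 in H1650 and 6.08 in Calu3, and between 2.70 and 3.76 in the other 12 lines. In this probe set these 3 lines were thus high and the rest formed a narrow band. Both other SEMA3D probe sets were highest in H460 and second in H1650, but they varied by at most 2.67 units and had Calu3 within the band, at 3.58 and 3.22, below H226 at 3.61 in one and H520 at 3.28 in the other.

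SEMA3C, a class 3 semaphorin that guides outflow tract cells in the heart and binds both neuropilins, was at 11.26 in Calu1, 11.18 in H226, 10.88 in H1975 and 10.73 in H1650. It was lowest in H520, at 4.52, followed by H2009 at 6.19 and H3122 at 7.13. The squamous lines thus held both the highest levels and the lowest. The median over the 15 lines was 9.37. None of the 5 other SEMA3C probe sets was highest in Calu1, and the widest of them ranged over 7.12 units.

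SEMA3E, the PLXND1 ligand, was highest in H1650 at 9.34 and in Calu3 at 8.85, the lines that also came next after H460 in the SEMA3D probe set used. It was at 3.56 in H226, 3.65 in H1781 and 3.98 in H520, below the lower quartile of those arrays, and between 5.18 and 7.90 in the other 10 lines. Neither of the other SEMA3E probe sets had these 3 lines lowest. A549 was lowest in one, at 3.92, and second lowest in the other, at 3.32, after H1781 at 3.31. In the probe sets used, H226 and H520, both squamous, were low in SEMA3A and SEMA3E together, whereas the third squamous line, Calu1, was at 8.56 and 7.16. SEMA3B ranged from 5.96 in H3122 to 8.76 in H1437. SEMA3F, which signals through NRP2, ranged from 6.00 in HC827 to 9.07 in H3122, with 8.41 in H1781 and 8.26 in H520 next. These 3 lines also had the widest gaps between the 3' and 5' actin probe sets, 1.90 in H3122, 2.09 in H1781 and 1.30 in H520, and the part of RNA quality in their SEMA3F levels was not tested. SEMA3G ranged over 0.46 in the probe set used and over 1.40 in the other, both highest in H520.

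Of the 13 membrane semaphorins, SEMA6A, SEMA5A and SEMA4B varied the most. SEMA6A, a transmembrane ligand of PLXNA2 and PLXNA4, was at 10.13 in H520, at 6.01 in Calu3 and between 4.22 and 4.63 in the other 13 lines. H520 thus exceeded the next line by 4.12 units, and it was highest in all 3 other SEMA6A probe sets. SEMA5A, which carries thrombospondin repeats and binds plexins, was at 9.24 in H1650, 9.08 in H460, 8.86 in H520 and 8.61 in H226. The next line was Calu1 at 7.14, and the lowest was H1781 at 4.35. SEMA4B was at 11.43 in H2228 and 11.18 in H358 and fell to 8.10 in H1781 and 6.89 in H520.

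The other 10 membrane semaphorins ranged over 0.42 to 3.73 units. SEMA4D, the PLXNB1 ligand known from T cells, was highest in H520 at 8.88 and lowest in Calu1 at 5.15, although none of the 4 other SEMA4D probe sets varied by more than 0.90. SEMA7A, a semaphorin held in the membrane by a lipid anchor, was at 10.25 in Calu1, 10.03 in Calu3 and 9.58 in H226, all radiosensitive, and between 6.78 and 8.79 in the other lines. The radiosensitive lines H2009, H1781, H1437 and H520 were among the latter, so the groups overlapped. For SEMA6D and SEMA4A the choice of the brightest probe set hid variation: the probe sets used ranged over 0.77 and 0.98, while another probe set of the same gene ranged over 3.52 and 2.30. These other probe sets rose above the array median in 1 line each, SEMA6D at 6.64 in Calu1 and SEMA4A at 6.10 in H1781. In that SEMA6D probe set the squamous lines H520 and H226, at 5.15 and 4.40, were also above all adenocarcinoma lines, at 3.12 to 3.86. The bronchioloalveolar line H358 was at 5.26.

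H520 was the highest of the 15 lines in 9 of the 31 members, more than any other line, followed by Calu1 and H1650 with 4 each. In 6 of these 9 the gene ranged over less than 2 units. Among the 20 members with a range over 2 units, H520 was highest in 3 (SEMA4C, SEMA4D and SEMA6A) and lowest in 3 (SEMA3C, SEMA4B and PLXNB2). Over all 7137 genes with such a range H520 was highest in 10.2% and lowest in 14.9%, the largest shares of any line.

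In the probe sets used, the co-receptors were above the array median in most lines, NRP1 in 15 and NRP2 in 11. The array median is not a detection limit. NRP1, which also binds VEGFA, ran from 6.35 in H1650 to 10.61 in Calu1, with 10.45 in H2228 next. Another NRP1 probe set lay below the array median in every line, from 4.06 in H1437 to 4.94 in Calu1. NRP2 was at 9.76 in H2228, 9.17 in H520 and 8.91 in H358, and below 5 in H460 (4.54), H1781 (4.56) and H1650 (4.87). H2228 was thus first or second for both, and H1650 and H460 were among the lowest 3 for both. The highest line of NRP1 was the same in all 5 other probe sets, and that of NRP2 in 7 of 8. The low end held less well: the lowest 3 lines were the same in 1 of 5 other NRP1 and 4 of 8 other NRP2 probe sets, and H1650 was lowest in none of the other NRP1 probe sets.

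Among the plexins, PLXND1, PLXNA2 and PLXNB2 had the widest ranges of those above the array median in some line. PLXND1, the SEMA3E receptor, was at 9.28 in H1650 and 8.81 in H3122 and between 5.28 and 7.57 in the other 13 lines. PLXNA2 was at 8.27 in H460, 7.48 in H226 and 7.14 in H520, and lowest in H358 at 4.98. PLXNB2, a receptor for class 4 semaphorins, was between 7.82 in H520 and 10.94 in H1781. PLXNC1, the SEMA7A receptor, was above the array median in 2 lines only, H226 at 6.39 and H520 at 6.36. The other 13 lines were between 4.09 and 5.48, and the second PLXNC1 probe set had the same pair of lines highest. PLXNA1 and PLXNA3, which pair with neuropilins, ranged over 1.54 units each.

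Ligand and receptor levels were set side by side in each line as a description, since the points share 15 arrays. H1650 was the highest line for both SEMA3E and PLXND1. The line with the second highest SEMA3E, Calu3, was at 6.05 for PLXND1, rank 12 of 15, so the pairing did not hold beyond H1650 at the top. H460 had the highest SEMA3A and the highest SEMA3D. In the probe set used its NRP2, at 4.54, was lowest, just below H1781 at 4.56. In the next brightest NRP2 probe set H1781 was lowest, at 4.11, with H460 at 4.41. The NRP1 of H460, at 6.66 in the probe set used, exceeded only that of H520 and H1650. H1650, second for SEMA3D, had the lowest NRP1 in the probe set used. H226, at 9.58 for SEMA7A and 6.39 for PLXNC1, was high in both ligand and receptor, whereas Calu1 and Calu3, with more SEMA7A, were at 4.93 and 4.63 for PLXNC1. In the probe sets used, the 2 lines with the least SEMA4D, Calu1 and H1975, were also the 2 with the least PLXNB1, at 6.02 and 5.83. The other SEMA4D probe sets varied by at most 0.90, and Calu1 was lowest in none of them.

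**Figure D2:**
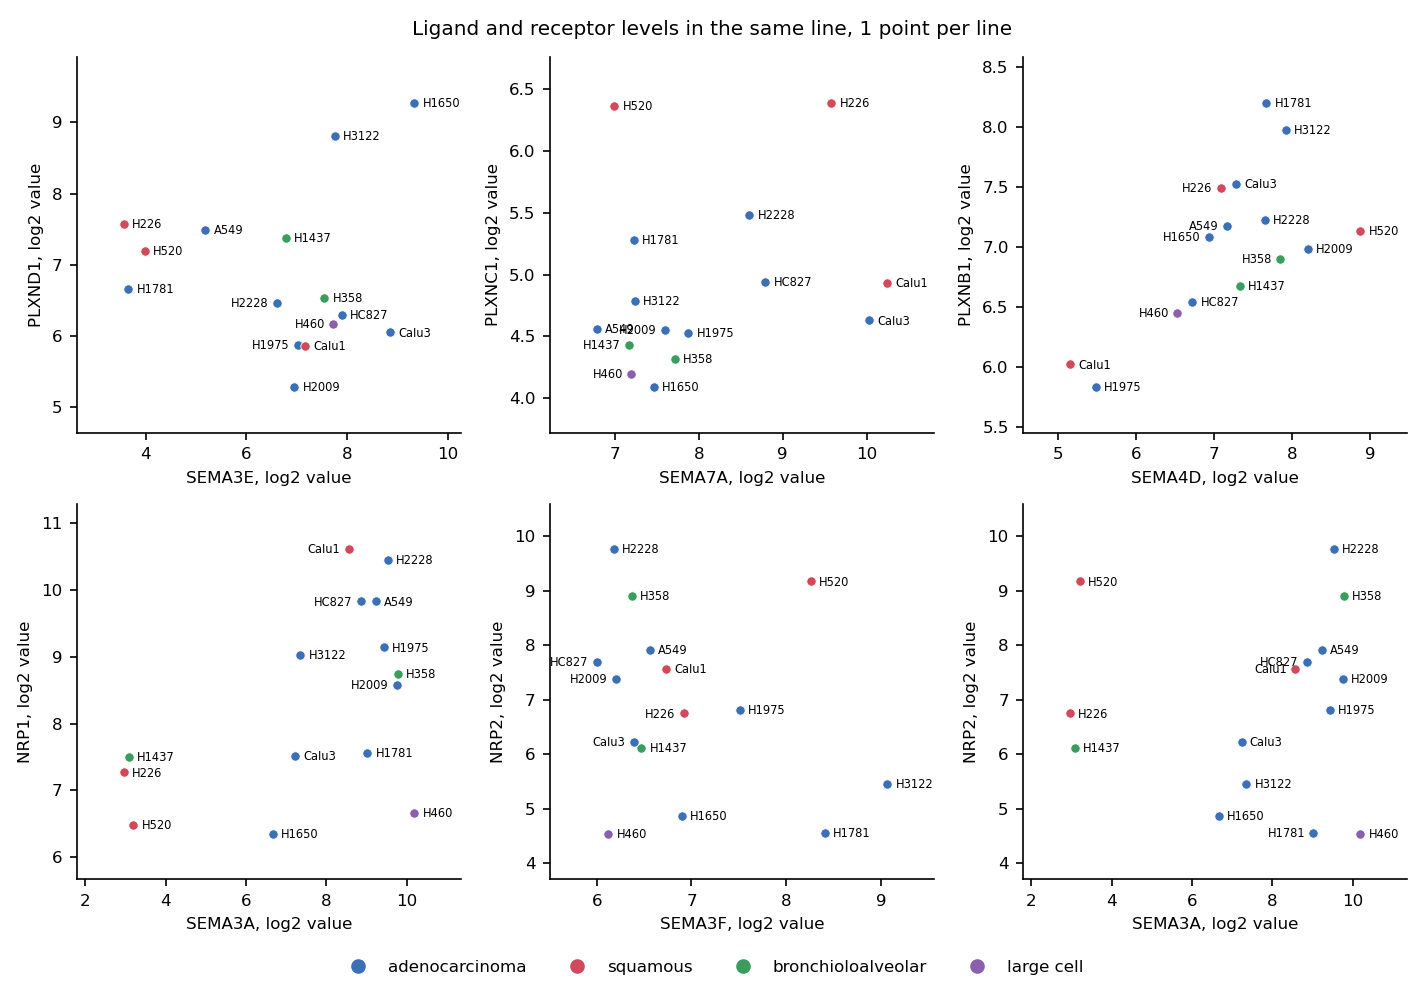
Log2 value of a receptor or co-receptor (vertical axes) against that of a semaphorin (horizontal axes) in 6 panels, 1 labelled point per line, coloured by histology. Values are those of the probe set used for each gene. H1650 lies at the upper right of the panel of SEMA3E and PLXND1, and Calu1 and H1975 at the lower left of that of SEMA4D and PLXNB1. H460, with the highest SEMA3A, lies near the bottom of the panels of SEMA3A with NRP1 and with NRP2.

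The first comparison asked which members differed between radioresistant and radiosensitive lines. A gene was called when its log2 difference exceeded 1 and its unadjusted p in limma was under 0.05; an adjusted p takes all 18132 genes into account. SEMA3A was called, 1 member of 31 (3.23%), and 0.546% of all genes were. With p alone, SEMA3B was added, which made 2 members (6.45%, against 3.18% of all genes). With an adjusted p under 0.05, 0% of members and 0% of all genes passed, and the lowest adjusted p of any member was 0.998. Of the 31 members, 16 had the higher mean in radioresistant lines and 15 in radiosensitive lines.

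SEMA3A had a lowest, median and highest value of 6.66, 9.33 and 10.19 in the 8 radioresistant lines and of 2.96, 7.23 and 9.75 in the 7 radiosensitive lines. The groups overlapped: 3 radiosensitive lines were below all radioresistant lines and the other 4 lay among them. The mean was 8.88 ± 1.23 (SD, n = 8) against 6.26 ± 3.07 (SD, n = 7), a difference of 2.62 ± 1.11 (SE), with an exact permutation p of 0.0517 and, in limma, an adjusted p of 0.998 (two-sided, as all tests here). No fold is given, since the radiosensitive mean includes 3 lines below the lower quartile of their arrays, where the size of a difference is not well measured. Among the 9 adenocarcinoma lines alone the difference was -0.16 ± 0.80 (SE), 8.51 ± 1.21 (SD, n = 6) against 8.67 ± 1.29 (SD, n = 3), so the direction turned. Without the 3 squamous lines it was 1.61 ± 1.11 and the call was lost. The call was also lost when any one of H226, H1437, H520, H460, H358, H2228 and H1975 was left out, with differences between 2.07 and 3.20 over the 15 lines left out in turn.

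SEMA3B had a lowest, median and highest value of 5.96, 7.26 and 7.78 in radioresistant lines and of 7.04, 7.88 and 8.76 in radiosensitive lines. The overlap ran from 7.04 to 7.78. Its mean was lower in radioresistant lines by a difference of -0.80 ± 0.33 (SE), under the fold limit, with an exact permutation p of 0.0357 and an adjusted p in limma of 0.998. Among the adenocarcinoma lines alone SEMA3B differed by -0.62 ± 0.46 (SE), with an exact permutation p of 0.25. SEMA3E, which was not called, had a difference of 1.54 ± 0.82 and an exact permutation p of 0.0976. With the mean of all SEMA3E probe sets the difference was 0.64 ± 0.51, and among adenocarcinoma lines it was 0.82 ± 1.18. NRP1 differed by 0.82 ± 0.70, NRP2 by 0.18 ± 0.84 and PLXND1 by 0.55 ± 0.55. SEMA6A differed by -1.06 ± 0.71, and by -0.30 without H520. SEMA3C, SEMA3D, SEMA5A, SEMA4B, PLXNA2, PLXNB2 and PLXNC1 had differences between -0.61 and 0.90.

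**Figure D3:**
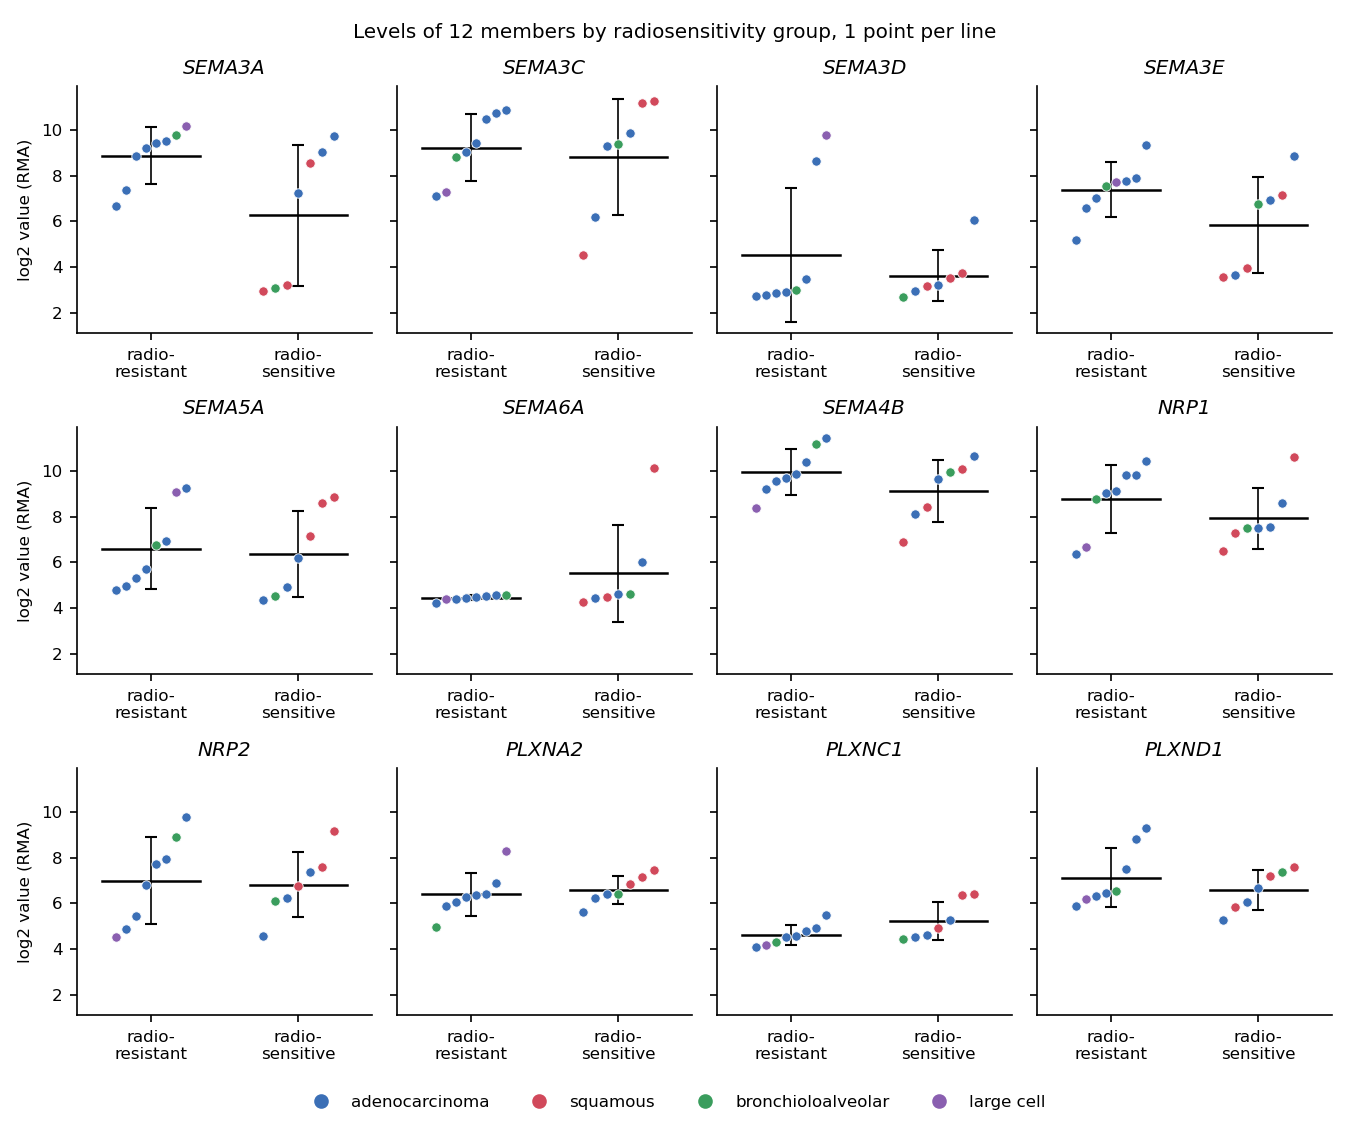
Log2 value (RMA) of 12 members in each line, in radioresistant (n = 8) and radiosensitive (n = 7) lines, coloured by histology; horizontal bars are means and error bars 1 SD. In SEMA3A 3 radiosensitive points, of which 2 are squamous, lie near 3 and apart from the rest, and in SEMA6A 1 squamous line lies at 10.13; in all 12 panels the groups overlap.

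Using SF2 as a number rather than a limit called none of the 31 members, 0 by p and difference and 0 by p alone, against 2.66% and 4.56% of all genes. The slope is given as the change from the line of lowest SF2 (H1781) to that of highest SF2 (H1975). It was 1.95 ± 1.19 (SE) for NRP1, 1.68 ± 1.42 for NRP2, 2.36 ± 2.24 for SEMA3A, -1.06 ± 0.53 for PLXNB1 and -1.17 ± 0.82 for SEMA4D, with an adjusted p of 0.998 in limma for each. Both neuropilins had positive slopes and 7 of 9 plexins negative ones, none of them past the test. Over the 12 lines that were not squamous, PLXNB1, PLXNB2 and SEMA4D were called, with changes of -1.16 ± 0.51, -1.24 ± 0.56 and -1.37 ± 0.56, that is 3 members against 3.52% of all genes. H1781, which has the lowest SF2, the highest PLXNB1 and PLXNB2, and the largest actin difference between 3' and 5' ends, is among these lines, and the part of RNA quality in the result was not tested.

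The second axis was histology. In the 3 squamous against the 9 adenocarcinoma lines SEMA5A and PLXNC1 were called higher and SEMA3A lower, 3 members of 31 (9.68%), and 3.68% of all genes were called. By p alone PLXNA2 was added, which made 4 members (12.9%), against 8.7% of all genes. No member passed an adjusted p under 0.05, nor did any gene (0% of all genes), and the lowest adjusted p was 0.296 for a member and 0.0849 for any gene. The smallest exact p that 3 against 9 lines allow is 0.00455.

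SEMA3A in squamous lines was at 2.96, 3.20 and 8.56, against 6.66, 9.02 and 9.75 as the lowest, median and highest of the adenocarcinoma lines. H226 and H520 were below all adenocarcinoma lines, and Calu1 lay among them. The difference was -3.65 ± 1.09 (SE), with an exact permutation p of 0.0182 and an adjusted p in limma of 0.358. H226 and H520 lay below the lower quartile of their arrays, so no fold is given. The call was kept without any single line.

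SEMA5A was at 7.14, 8.61 and 8.86 in squamous lines, against 4.35, 5.31 and 9.24 as the lowest, median and highest of the adenocarcinoma lines. H1650 was the 1 adenocarcinoma above the squamous lines, and the groups overlapped through it. The difference was 2.38 ± 0.88 (SE), 5.20-fold, with an exact permutation p of 0.0273 and an adjusted p in limma of 0.459. PLXNC1 was at 4.93, 6.36 and 6.39 in squamous lines, against 4.09, 4.63 and 5.48. Its difference was 1.13 ± 0.34 (SE), with an exact permutation p of 0.0182 and an adjusted p in limma of 0.358. No fold is given for PLXNC1. All adenocarcinoma lines were below the array median, and H1650, at 4.09, was below the lower quartile of its array (4.21). Both calls were lost without H226 or without H520. That of PLXNC1 was also lost with the mean of all its probe sets, where the difference of 0.97 ± 0.29 was under the fold limit. With arrays weighted by quality, SEMA3A, SEMA5A and PLXNC1 all lost the call, at -2.09 ± 1.13, 1.81 ± 0.94 and 0.70 ± 0.36.

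PLXNA2, a receptor for SEMA6A and for neuropilin-bound class 3 semaphorins, was at 6.86, 7.14 and 7.48 in squamous lines, against 5.61, 6.26 and 6.91. Calu1 was the only squamous line within the adenocarcinoma range. The difference of 0.92 ± 0.23 (SE) was under the fold limit, with an exact permutation p of 0.00909 and an adjusted p in limma of 0.296. SEMA3E differed by -2.13 ± 1.12, SEMA4B by -1.36 ± 0.69, PLXNB2 by -1.03 ± 0.54, SEMA6A by 1.66 ± 0.97 and NRP2 by 1.09 ± 0.98, none past the test. SEMA6D was not called with the probe set used. With the mean of all its probe sets it differed by 0.75 ± 0.16 (SE), with an unadjusted p in limma of 0.000757 but under the fold limit. The squamous SD of SEMA6A, 3.33, and of SEMA3C, 3.87, came from H520 against the other squamous lines, and the difference of SEMA3C ran from -1.37 to 2.0 as single lines were left out. The bronchioloalveolar lines H1437 and H358 stood apart from each other: SEMA3A was at 3.08 and 9.78, NRP2 at 6.11 and 8.91 and PLXNA2 at 6.43 and 4.98.

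Some epithelial and mesenchymal markers differed along the same axis. Of 5 epithelial markers, CDH1 (-6.39) and EPCAM (-3.71) were called lower in squamous lines, and of 5 mesenchymal markers, CDH2 (4.86), ZEB1 (3.18) and SPARC (2.91) were called higher. The summed mesenchymal markers were between 13.50 and 15.30 (log2) in squamous and between 8.18 and 14.07 in adenocarcinoma lines. The summed epithelial markers hardly differed, at 14.26 to 15.73 in squamous and 14.29 to 15.82 in adenocarcinoma lines. Markers were summed before the log, so the brightest of them set each sum. In H226 high keratins (KRT18 at 14.73) thus hid the low EPCAM (4.03) and CDH1 (3.49), and the sums do not bear on these 2 genes. KRT19 had the higher mean in squamous lines, 13.08 against 12.65, and EPCAM was at 13.05 in H520. SPARC in H520, at 6.22, and FN1 in H226, at 5.77, lay within or below the adenocarcinoma range. Of the 4 squamous markers measured, KRT5 alone was called, at 1.23, with 8.66 in H226, 6.12 in H520 and 5.63 in Calu1. The part of this axis in the differences of SEMA3A, SEMA5A and PLXNC1 was not tested.

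**Figure D4:**
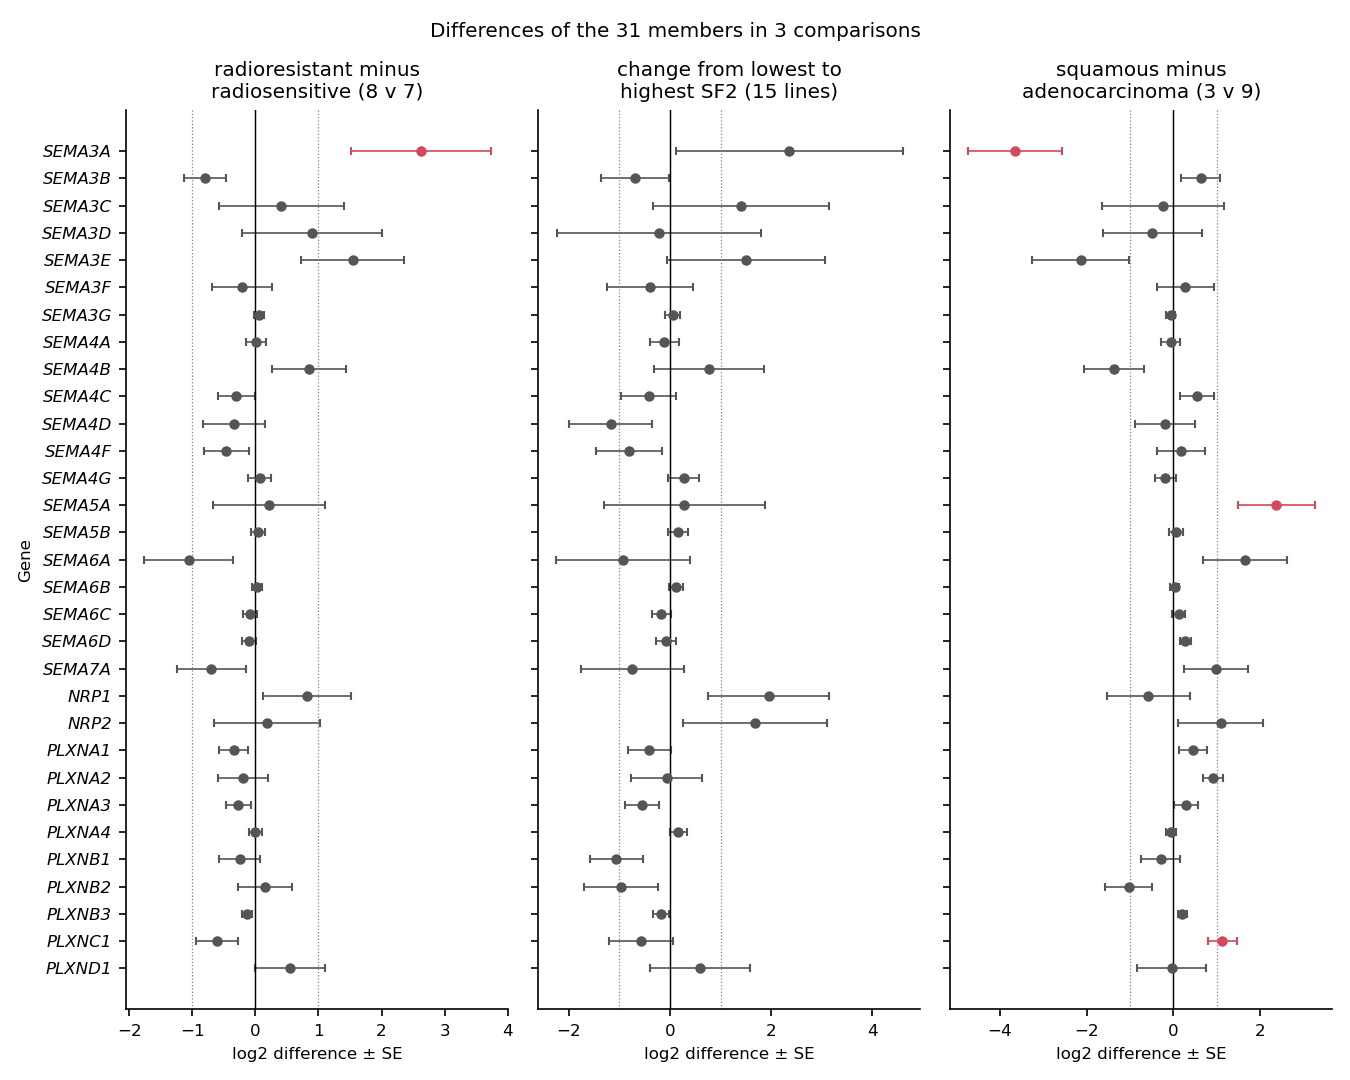
Log2 difference ± SE (limma) of each of the 31 members for radioresistant minus radiosensitive lines (8 and 7 lines), for the change from the lowest to the highest SF2 (15 lines) and for squamous minus adenocarcinoma lines (3 and 9 lines); red marks members past both limits and dotted lines a difference of 1. Red points are SEMA3A at 2.62 on the left and SEMA3A at -3.65, SEMA5A at 2.38 and PLXNC1 at 1.13 on the right, and the middle panel has none.

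Genes that carry or modify semaphorin signals were examined as a list of 53, of which 50 were measured. By radiosensitivity 1 of the 50 was called, against 0.546% of all genes. It was FYN, a SRC-family kinase downstream of SEMA3A and A-type plexins. FYN had a lowest, median and highest value of 5.16, 6.03 and 7.76 in radioresistant lines and of 6.23, 9.24 and 10.03 in radiosensitive lines. The radioresistant mean was lower, with a difference of -2.24 ± 0.65 (SE), an exact permutation p of 0.00917 and an adjusted p in limma of 0.998. Among adenocarcinoma lines it differed by -1.71 ± 0.65. Over the SF2 range 2 of the 50 were called, against 2.66% of all genes. One was VEGFA, the neuropilin ligand that rivals SEMA3A, with a change of -2.15 ± 0.61 (SE) and an adjusted p in limma of 0.998. H1781, with the lowest SF2, had the highest VEGFA, at 12.34, and the largest actin difference between 3' and 5' ends. The part of RNA quality in this change was not tested.

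By histology 5 of the 50 were called, against 3.68% of all genes. Higher in squamous lines were FYN, at 9.56, 10.01 and 10.03 and above all adenocarcinoma lines (3.36 ± 0.72), DPYSL3 (2.77 ± 0.97), a member of the collapsin response mediators that act after SEMA3A, L1CAM (2.03 ± 0.83), a partner of NRP1, and MICAL1 (1.09 ± 0.39), an enzyme that oxidises actin after plexin activation. SH3BP1, a RAC-inactivating protein of SEMA3E signalling, was lower (-1.04 ± 0.34). Except in FYN, the groups overlapped. In DPYSL3 the squamous line H226, at 7.10, lay within the adenocarcinoma range of 4.77 to 8.65. H520 lay within that range in L1CAM (5.27, range 4.67 to 8.15), MICAL1 (5.97, range 4.92 to 6.66) and SH3BP1 (7.87, range 7.54 to 8.91). The adjusted p in limma was 0.226 for FYN and 0.410 to 0.518 for the others. The median difference of the 50 was 0.06, against 0.008 over all genes tested, and 29 of 50 had the higher mean in squamous lines.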

How the data were processed

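The authors deposited log2 expression values of 15 lines, made with RMA in affy 1.64.0 per the processing notes. RMA takes off background, gives all arrays 1 distribution and merges the probes of a set, so that overall brightness is lost as a measure and low values are drawn together. The sample labels describe 1 biotin-labelled sample per array and the methods Cy3 or Cy5 labelling against a reference RNA; the deposited values are those of single lines and no ratio was formed. A genome build and batches are not given in the sources used here. Precision is limited by there being 1 array per line.

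After removal of 100 ERCC and 102 AFFX control probe sets from 49495, platform annotation gave exactly 1 gene for 44988 of the remaining 49293. For each of 18132 genes the brightest of these probe sets over the lines was used. The members had 101 such probe sets. Of the 70 not used, 39 had the same highest line as the one used. The labels name only the line of each sample; histology and SF2 were joined by line name from the study.

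Differences were tested with limma 3.58.1 (lmFit, eBayes; statmod 1.5.0, R 4.3.3) with Benjamini-Hochberg adjustment over all genes, and single genes by exact two-sided permutation over all 6435 splits into 8 and 7 lines or 220 into 3 and 9. A gene was called where p, before adjustment, was under 0.05 and the log2 difference exceeded 1 in size; the study gives the same sizes for its limits, with the p named as adjusted in one place only. The fit was tested on simulated data. Values by line were given for both neuropilins, all called members and, in class 3 semaphorins, other semaphorins and plexins, the 3 of widest range above the array median in any line; SEMA3B, SEMA3E, SEMA3F, SEMA4D, SEMA7A, PLXNB1 and SEMA6D were added after their values were seen. Pathway genes were named where called, except that 1 result over the SF2 range is not reported here. The members and lists were chosen with earlier results of these data known. Alternatives covered variance moderation, array weights, centring, probe sets, dim genes, an ordinary t-test, histology, the rank of SF2 and each line left out in turn. Promoter sequences came from RefSeq (GRCh38.p14); no reference table of proteins was used. Figures were drawn with Python 3.11.15 and matplotlib 3.10.9.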

Additional observations from a re-analysis of the deposited data

Results flagged for a closer look

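In 6 of the 93 sets examined (the 8 radioresistant, 7 radiosensitive or 9 adenocarcinoma lines of each member) the highest or lowest line stood apart from the others by Dixon's criterion at 95%. Chance alone marks about 1 in 20 such sets. SEMA6A was at 10.13 in H520, highest of the radiosensitive lines, with the next at 6.01, and Calu3, at 6.01, was highest of the adenocarcinoma lines, with the next at 4.62. SEMA3D was at 6.08 in Calu3, highest of the radiosensitive lines, with the next at 3.76; in the other SEMA3D probe sets Calu3 was at 3.58 and 3.22, within the range of the other radiosensitive lines. PLXNA3, an A-type plexin, was at 7.16 in A549, lowest of both the radioresistant and the adenocarcinoma lines, with the next at 7.89. SEMA4G, a membrane semaphorin, was at 5.75 in A549, highest of the radioresistant lines but below the array median, with the next at 4.94.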

How the results depend on the processing

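The number of members called by radiosensitivity was 1, SEMA3A, and went to 0 with array weights, to 0 without the 3 squamous lines and to 0 among adenocarcinoma lines only, where the difference of SEMA3A reversed to -0.16; it was 0 to 2 as single lines were left out, with 2 without A549 or Calu3, where SEMA3E was added, and 0 without H1437, H1975, H2228, H226, H358, H460 or H520. Over the SF2 range the count was 0 and went to 3 without the 3 squamous lines; it was 0 to 2 as lines were left out, with 2 without Calu1 and 1 (PLXNB1) without A549, H2009 or H3122. By histology the count was 3 and went to 1 (SEMA7A) with array weights and to 5 without H1781 and H3122, where SEMA3E and SEMA4B were added; it was 2 to 8 as lines were left out, with 8 without Calu1 and 5 without H1781. An ordinary t-test, without the permutations named in the study's methods, gave 1 member by radiosensitivity and 3 by histology. An adjusted p under 0.05 was reached by 0 genes by histology, but by 20 with array weights, 10 against all 12 other lines, 1 with the ordinary t-test and 1 without H1781 and H3122. Of 2065 values of single members under an alternative, 17 lost a call, 25 gained one, 1 reversed a call and 47 moved by more than 1 SE without a call; the others kept their side of the limits. The sign changed in 90 of the 2065, of which 87 had a difference under its SE at the outset. No paired analysis was possible because the lines of one group have no counterpart in the other. The causes were not tested.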
